A study of Rattus norvegicus with 9 samples.

Results

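The expression of 8 genes that serve as markers of the inner compartments and the barrier of peripheral nerve was followed across cultured rat fibroblasts: Sox9, Etv1, Osr2 and Wif1, used as markers of endoneurial fibroblasts, and Cldn1, Tjp1, Ocln and Krt19, used as markers of the perineurium and its barrier. They were found by gene symbol in the deposited matrices, where each of the 8 has 1 row among 32883 genes. The study compared fibroblasts from the epineurium of the sciatic nerve (Fb-Epn), from the nerve parenchyma inside it (Fb-Par) and from abdominal skin (Fb-Skn), with 3 libraries per type and 9 in all. All were wild-type cells of male Lewis rats of 10 weeks of age, cultured in serum-containing medium and passaged once. The nerve cells came from 2 rats and the skin cells from 1 other rat, so the 3 libraries of a type cannot be 3 separate animals. P-values here therefore measure the spread between these samples, which may be technical. Tissue, donor rat and body site change together between nerve and skin and cannot be told apart. Fb-Par were not sorted, and according to the study they hold both perineurial and endoneurial fibroblasts.

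A peripheral nerve is built in layers. The epineurium is the outer connective tissue, the perineurium is a sleeve of flattened cells around each fascicle, and the endoneurium is the loose tissue between the axons. Perineurial cells are joined by tight junctions, in which claudins and occludin span the membrane and zonula occludens proteins tie them to actin, and this sleeve is one part of the blood-nerve barrier. Endoneurial fibroblasts lie beside axons and Schwann cells. Sox9 is a transcription factor of cartilage and of neural crest derivatives, Etv1 is a PEA3-type ETS factor that acts downstream of FGF signalling, Osr2 is a zinc finger factor of limb and craniofacial mesenchyme, and Wif1 is a secreted protein that binds Wnt ligands.

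The rn6 annotation of the files places Sox9 at chr10:101288489-101293379, Etv1 at chr6:58467254-58558631, Osr2 at chr7:74047814-74055256, Wif1 at chr7:63094911-63165159 and Cldn1 at chr11:77815181-77830416, all on the plus strand. Tjp1 lies at chr1:126146489-126227469, Ocln at chr2:30527715-30577218 and Krt19 at chr10:88055841-88060561, all on the minus strand. All are protein coding. Krt19 shares its span with the row of Krt14 on the same strand, so its few reads could be split between them and its value is uncertain. The other 7 overlap no other row of the table.

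RefSeq promoters of build GRCr8, 250 bases before to 50 bases after the annotated start, were at hand for 5 of the 8 genes. The windows of 3 are printed because they belong to genes that were highest in different types or absent from one: Etv1, highest in Fb-Par, at chr6:61317179-61317478; Wif1, highest in Fb-Skn, at chr7:58433329-58433628; and Cldn1, without a read in Fb-Skn, at chr11:87926126-87926425. All 3 are shown 5′ to 3′ on the plus strand, and capitals mark the GC box, GGGCGG or CCGCCC on the other strand:
Etv1: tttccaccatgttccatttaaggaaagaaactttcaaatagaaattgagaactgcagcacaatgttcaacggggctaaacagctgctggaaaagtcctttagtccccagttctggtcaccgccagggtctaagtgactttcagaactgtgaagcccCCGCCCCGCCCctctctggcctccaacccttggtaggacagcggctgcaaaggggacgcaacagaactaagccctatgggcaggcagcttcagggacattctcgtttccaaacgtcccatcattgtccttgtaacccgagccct
Wif1: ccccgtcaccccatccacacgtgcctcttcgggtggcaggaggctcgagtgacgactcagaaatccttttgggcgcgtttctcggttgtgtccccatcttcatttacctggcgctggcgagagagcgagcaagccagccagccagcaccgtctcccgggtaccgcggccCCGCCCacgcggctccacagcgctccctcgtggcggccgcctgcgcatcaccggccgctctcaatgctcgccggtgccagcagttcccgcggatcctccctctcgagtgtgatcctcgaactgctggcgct
Cldn1: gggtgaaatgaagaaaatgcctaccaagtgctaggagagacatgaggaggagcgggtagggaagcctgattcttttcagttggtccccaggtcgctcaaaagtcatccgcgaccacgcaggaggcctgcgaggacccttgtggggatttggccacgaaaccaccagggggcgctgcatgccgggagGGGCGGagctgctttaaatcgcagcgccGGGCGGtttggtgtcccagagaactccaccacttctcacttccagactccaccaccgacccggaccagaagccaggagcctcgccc
The GC box occurred 2 times in the Etv1 window, 1 time in that of Wif1 and 2 times in that of Cldn1, and no GC box was in the windows of Tjp1 and Ocln. Of 33469 rat promoters of this length, 33.1% held a GC box on either strand. CCAAT (or ATTGG) was in 37.5% of all promoters and TATAAA (or TTTATA) in 14.2%, and neither was in any of the 5 windows. The Wif1 window was 67.0% G or C with 32 CpG dinucleotides, that of Cldn1 60.7% with 17 and that of Etv1 52.0% with 9, beside medians of 51.7% and 7 over all promoters. These matches describe the windows only.

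Levels are given as TPM, a unit of transcript abundance that corrects for gene length and library size, and tests were run on counts. Total counts per library ranged from 10084584 to 12310506. The edgeR quasi-likelihood test was fitted to 13273 genes with enough reads, the Benjamini-Hochberg adjustment ran over all of them, and a gene passed at an adjusted p of 0.01. For a DE gene the log2 fold change was in addition beyond 2 in either direction. Of the 8 genes, 6 could be tested, and Cldn1 and Krt19 had too few reads. Each type enters a pair of the 3 comparisons, so the comparisons are not independent of each other. Levels of other cell types' markers, summed over the genes present in the table, moved with the types. Schwann cell markers summed to 193 to 203.4 TPM in Fb-Epn, 267.7 to 275.4 in Fb-Par and 10.53 to 13.23 in Fb-Skn, where Erbb3, Sox10 and Cdh19 were at 0. Macrophage markers summed to 296.2 to 324.2, 81.57 to 86.97 and 24.4 to 26.29 TPM in the same order, and pericyte markers to 20.03 to 24.65, 158.3 to 167.7 and 26.2 to 29.23. Most of the Schwann cell sum in Fb-Epn was S100b, at 129.6 ± 8.21 TPM. S100b was at 119.2 ± 4.83 TPM in Fb-Par and did not pass between the nerve types (edgeR, adjusted p = 0.114). Of the 8 tested Schwann cell markers, the other 7 were lower in Fb-Epn than Fb-Par, beside 18.6% of all tested genes. Most of the pericyte sum in Fb-Skn was Cspg4, at 26.4 ± 1.34 TPM, and Rgs5 and Kcnj8 had no read there. Of the 6 pericyte markers, 5 were higher in Fb-Epn than Fb-Skn and only Cspg4 was lower, beside 23.0% and 20.9% of all tested genes. Endothelial markers summed to 17.75 to 18.15 TPM in Fb-Epn, 11.84 to 13.32 in Fb-Par and 5.862 to 6.305 in Fb-Skn. Most of the last sum was Flt1, at 4.86 ± 0.408 TPM. Keratinocyte markers stayed at or below 4.798 TPM in every library, while fibroblast markers summed to 25820 TPM or more. The part of these cells in the results below was not tested, and in bulk samples fewer cells of a type and less RNA per cell cannot be told apart.

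**Figure D1:**
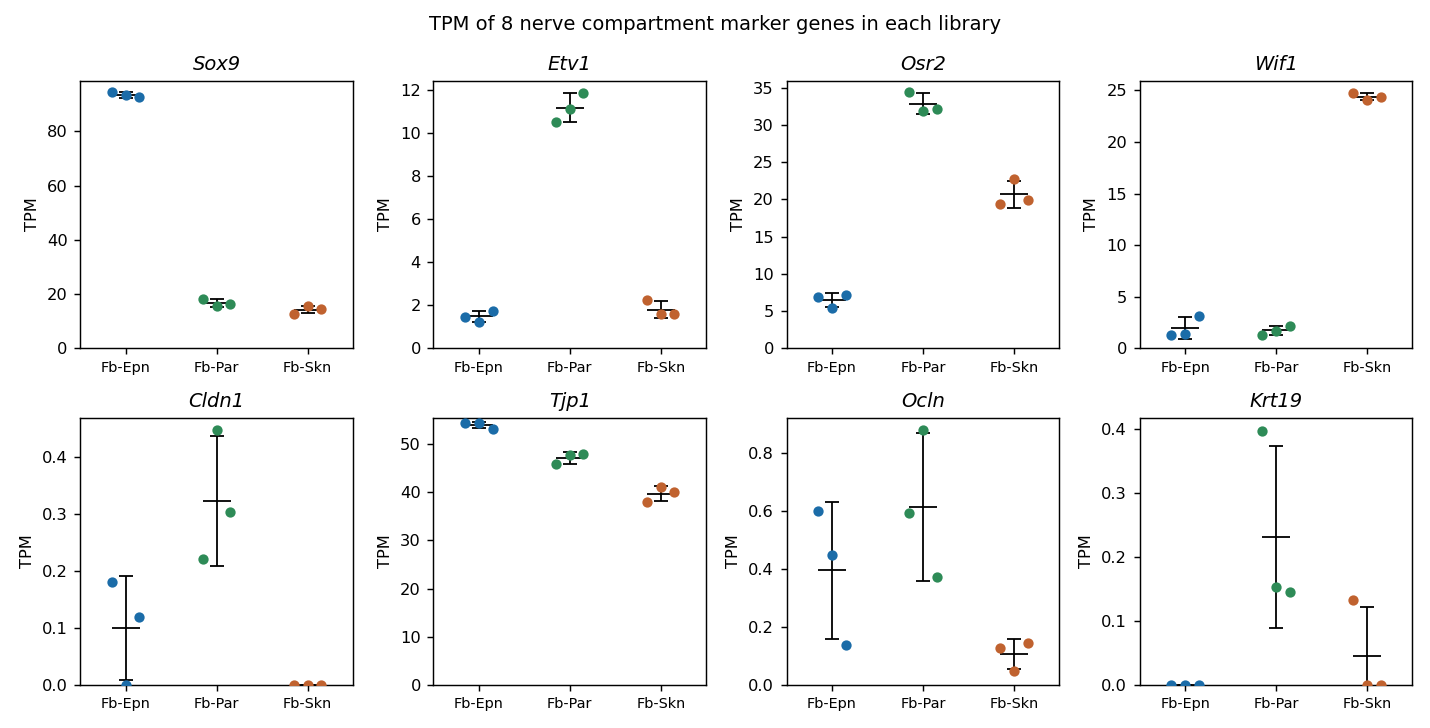
TPM of the 8 marker genes in each library (dots) of the 3 fibroblast types, with the mean (line) and SD (error bar) of 3 libraries, on axes that start at 0. Sox9 is highest in Fb-Epn, Etv1 and Osr2 in Fb-Par and Wif1 in Fb-Skn, Tjp1 differs little, and Ocln, Cldn1 and Krt19 stay below 1 TPM.

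The 4 endoneurial markers did not share a pattern. Etv1 and Osr2 were highest in Fb-Par, Sox9 was highest in Fb-Epn, and Wif1 was highest in skin cells. Of the 4 barrier markers, only Tjp1 was well expressed. The data thus go partly against the group's name, and the genes are described here one by one under the role for which they are used.

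Sox9 read 94.5, 93.2 and 92.5 TPM in the 3 Fb-Epn libraries, 18.2, 15.4 and 16.2 in Fb-Par, and 12.7, 15.4 and 14.5 in Fb-Skn. Every Fb-Epn library stood far above all others, and the Fb-Par and Fb-Skn libraries lay next to each other. The means were 93.4 ± 0.985, 16.6 ± 1.46 and 14.2 ± 1.35 TPM (SD, n = 3 per type). By edgeR, Sox9 was 5.65-fold higher in Fb-Epn than Fb-Par (log2 fold change 2.497, SE 0.067, adjusted p = 3.93e-13) and 5.98-fold higher than in Fb-Skn (2.58, SE 0.069, adjusted p = 2.67e-13). Between Fb-Par and Fb-Skn the log2 fold change was 0.08 with a 95% interval of -0.08 to 0.25 (edgeR, adjusted p = 0.376). Sox9 thus ranked above 86.7% of the tested genes in Fb-Epn by TPM, against 46% in Fb-Par and 45.5% in Fb-Skn.

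Etv1 had the opposite order within the nerve. It read 1.47, 1.22 and 1.74 TPM in Fb-Epn, 10.5, 11.1 and 11.9 in Fb-Par, and 2.23, 1.58 and 1.57 in Fb-Skn. The lowest Fb-Par library was well above the highest of the other types, whereas Fb-Epn and Fb-Skn overlapped. Etv1 was 7.52-fold lower in Fb-Epn than Fb-Par (log2 fold change -2.91, SE 0.152, adjusted p = 6.82e-10) and 5.56-fold higher in Fb-Par than Fb-Skn (2.48, SE 0.149, adjusted p = 2.71e-09, both by edgeR). The difference between Fb-Epn and Fb-Skn (-0.44, 95% interval -0.81 to -0.06) did not pass (edgeR, adjusted p = 0.0479). Even in Fb-Par, Etv1 exceeded only 36% of the tested genes.

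Osr2 was the other marker that peaked in Fb-Par, and here skin cells took the middle place. It read 34.5, 31.9 and 32.1 TPM in Fb-Par, 19.38, 22.72 and 19.96 in Fb-Skn, and 6.88, 5.39 and 7.09 in Fb-Epn. No library of one type overlapped another type. Osr2 was 5.07-fold lower in Fb-Epn than Fb-Par (log2 fold change -2.34, SE 0.114, adjusted p = 3.14e-10), 3.54-fold lower in Fb-Epn than Fb-Skn (-1.82, SE 0.117, adjusted p = 6.71e-09) and 1.43-fold higher in Fb-Par than Fb-Skn (0.52, SE 0.101, adjusted p = 0.000519, all by edgeR). Its paralog Osr1, a factor of early mesenchyme, was ordered otherwise, with 54.4 ± 1.62 TPM in Fb-Skn, 29.2 ± 2.55 in Fb-Epn and 19.3 ± 0.440 in Fb-Par. Osr1 was lower in Fb-Par than Fb-Skn (log2 fold change -1.65, SE 0.076, adjusted p = 1.26e-10) and higher in Fb-Epn than Fb-Par (0.61, SE 0.079, adjusted p = 1.48e-05, both by edgeR).

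Wif1 was a gene of the skin cells in these cultures. It read 24.7, 24.1 and 24.4 TPM in Fb-Skn, 1.30, 1.69 and 2.14 in Fb-Par, and 1.24, 1.41 and 3.16 in Fb-Epn. The nerve libraries lay close to the bottom and overlapped, and the highest of them was Fb-Epn replicate 3. Wif1 was 13.9-fold lower in Fb-Epn than Fb-Skn (log2 fold change -3.79, SE 0.242, adjusted p = 6.08e-09) and 15.8-fold lower in Fb-Par than Fb-Skn (-3.98, SE 0.248, adjusted p = 4.05e-09, both by edgeR). Between the nerve types the log2 fold change was 0.19 with a 95% interval of -0.49 to 0.86 (edgeR, adjusted p = 0.656), and without Fb-Epn replicate 3 its sign turned (-0.34, edgeR adjusted p = 0.397).

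**Figure D2:**
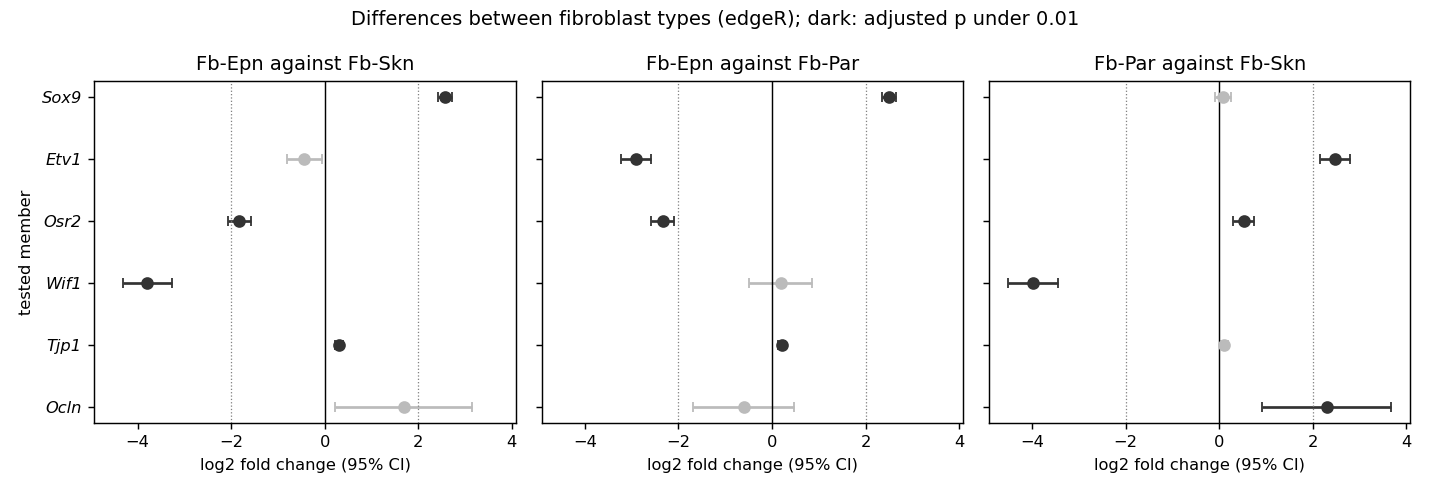
Log2 fold change (x axis) of the 6 tested marker genes in the 3 comparisons between types, with 95% intervals from edgeR; dotted lines stand at -2 and 2, and dark points passed an adjusted p of 0.01. Sox9, Etv1 and Wif1 each pass a dotted line in the pair of comparisons that involve their highest type, Osr2 passes one between Fb-Epn and Fb-Par, Ocln passes one, with a wide interval, between Fb-Par and Fb-Skn, and Tjp1 lies close to 0 throughout.

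Tjp1 encodes ZO-1, the scaffold that anchors claudins and occludin to actin, and it is also found at adherens junctions of cells without tight junctions. It read 54.5, 54.3 and 53.2 TPM in Fb-Epn, 45.8, 47.7 and 48.1 in Fb-Par, and 38.1, 41.1 and 40.0 in Fb-Skn. The types did not overlap, but the steps between them were small. Tjp1 was 1.15-fold higher in Fb-Epn than Fb-Par (edgeR, log2 fold change 0.20, SE 0.038, adjusted p = 0.000423) and 1.23-fold higher than in Fb-Skn (0.30, SE 0.039, edgeR adjusted p = 1.05e-05). The step from Fb-Skn to Fb-Par (0.10, 95% interval 0.02 to 0.18) did not pass (edgeR, adjusted p = 0.0428), though it did with scaling by library size alone (0.19, edgeR adjusted p = 0.000524) and with limma on log2(TPM + 1) (0.24, adjusted p = 0.00135). Tjp1 was above 71.7% to 76.8% of the tested genes in every type.

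Ocln, which encodes the membrane protein occludin, was at the limit of detection. Its counts were 13, 11 and 3 reads in Fb-Epn, 14, 18 and 8 in Fb-Par, and 3, 1 and 3 in Fb-Skn, and its level was 0.396 ± 0.237, 0.616 ± 0.256 and 0.107 ± 0.0514 TPM. Each Fb-Par library was above each Fb-Skn library, and Fb-Epn overlapped both in reads. Ocln passed between Fb-Par and Fb-Skn (edgeR, log2 fold change 2.29, SE 0.642, 95% interval 0.92 to 3.68, adjusted p = 0.00722), on 40 reads against 7, a ratio of 5.07 with a counting interval of 2.25 to 13.4. This call was lost when any 1 of 6 libraries was left out, namely Fb-Epn replicate 2, Fb-Par replicate 1 or 2, or any Fb-Skn library, with adjusted p up to 0.0363 by edgeR, and with limma on log2(TPM + 1) (0.53, adjusted p = 0.017). The other comparisons of Ocln did not pass (edgeR, adjusted p = 0.0489 for Fb-Epn against Fb-Skn and 0.344 for Fb-Epn against Fb-Par).

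Cldn1, the claudin used to stain perineurial cells, was found in single reads. It had 3, 0 and 2 reads in Fb-Epn, 4, 7 and 5 in Fb-Par, and 0 in each Fb-Skn library, where 3 reads, the most that a count of 0 allows, would be 0.167 to 0.191 TPM. The Fb-Par libraries (0.221, 0.447 and 0.303 TPM) lay above all others, and the mean of Fb-Par was 1.6-fold this floor of 3 reads per Fb-Skn library. On 16 reads against 0, the counting interval of the ratio of Fb-Par to Fb-Skn starts at 3.42. A two-sided exact permutation test on CPM (counts scaled by TMM library size, without correction for gene length) gave p = 0.1 for Fb-Par against either other type, the smallest value that 3 libraries against 3 allow. When all 19501 genes with at least 1 read were fitted, Cldn1 passed between Fb-Par and Fb-Skn (edgeR, adjusted p = 0.00438) but not between Fb-Epn and Fb-Par (adjusted p = 0.207).

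Krt19, a keratin of simple epithelia, had 3, 1 and 1 reads in Fb-Par, 1, 0 and 0 in Fb-Skn, and none in Fb-Epn, where 3 reads would be 0.382 to 0.432 TPM. Its level in Fb-Par, 0.231 ± 0.143 TPM, lies below that floor, so no difference was detectable at this depth (exact permutation test on the same scale, two-sided, p = 0.1 against Fb-Epn and 0.2 against Fb-Skn). Of the overlapping Krt14, 36 reads fell in Fb-Skn and 1 in Fb-Par.

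**Figure D3:**
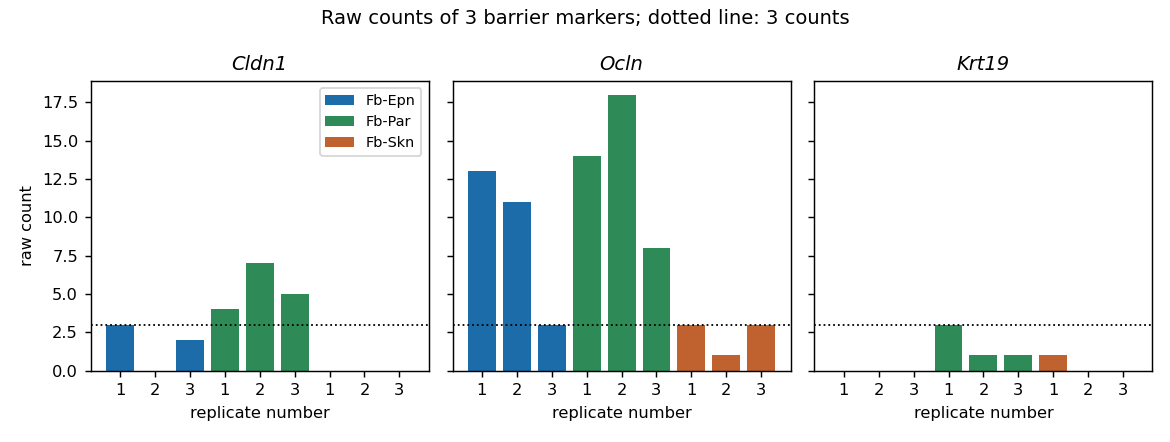
Raw read counts of Cldn1, Ocln and Krt19 in each of the 9 libraries, as bars from 0; the dotted line marks 3 counts, the limit that a count of 0 allows. The highest count of any of these genes is 18, for Ocln in Fb-Par replicate 2, and Cldn1 has no read in the Fb-Skn libraries.

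In all, 4 of the 6 tested genes passed in each comparison, beside 43.9% of all tested genes between Fb-Epn and Fb-Skn, 38.8% between Fb-Epn and Fb-Par and 45.6% for Fb-Par against Fb-Skn. Between Fb-Epn and Fb-Skn these were Sox9 and Tjp1, higher in Fb-Epn, and Osr2 and Wif1, lower, beside 23.0% of all tested genes higher and 20.9% lower. Between Fb-Epn and Fb-Par they were Sox9 and Tjp1, higher in Fb-Epn, and Etv1 and Osr2, lower, beside 20.2% higher and 18.6% lower. Between Fb-Par and Fb-Skn, Etv1, Osr2 and Ocln were higher in Fb-Par and Wif1 was lower, beside 23.2% higher and 22.4% lower. With so few genes and so many called in all, these shares say little about the group. DE genes were 2, 3 and 3 of the 6 in this order, beside 8.44%, 6.48% and 8.54% of all tested genes. The TPM of the types compared did not overlap for 4, 4 and 6 of the 6 genes, beside 61.4%, 57.3% and 61.7% of all tested genes. This was scored on TPM, without the TMM scaling used in the tests. In the last comparison it includes Sox9, which did not pass and was separated only by 15.41 TPM in Fb-Par against 15.36 in Fb-Skn. The median log2 fold change of all tested genes was within 0.012 of 0 in each comparison.

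The remaining barrier genes give the surroundings of Cldn1, Ocln and Tjp1. Claudins form the paracellular seal, and of the 22 others measured, 15 had at most 3 reads in every Fb-Epn library, 15 had so few in Fb-Par and 19 had so few in Fb-Skn. Only Cldn12 and Cldn15 could be tested. Cldn12 was at 17.9 ± 1.58 TPM in Fb-Epn, 10.6 ± 1.88 in Fb-Skn and 9.72 ± 1.21 in Fb-Par, and was higher in Fb-Epn than Fb-Par (edgeR, log2 fold change 0.89, SE 0.134, adjusted p = 6.02e-05) and than in Fb-Skn (0.61, SE 0.133, edgeR adjusted p = 0.00125). Cldn5, the claudin of endothelium, had 4, 5 and 5 reads in Fb-Epn and none elsewhere.

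Of 16 other tight junction genes, 12 were tested. Between Fb-Par and Fb-Skn, 8 were higher in Fb-Par, none was lower and 4 did not pass, with a median log2 fold change of 0.345 beside -0.012 for all tested genes. Between Fb-Epn and Fb-Par, 6 were lower in Fb-Epn, none was higher and 6 did not pass, with a median of -0.382 beside 0. Between Fb-Epn and Fb-Skn, 5 were higher in Fb-Epn, 2 were lower and 5 did not pass, with a median of 0.178 beside -0.003. Of all tested genes, 23.2% were higher in Fb-Par than Fb-Skn, 18.6% were lower in Fb-Epn than Fb-Par and 23.0% were higher in Fb-Epn than Fb-Skn. Each of these 12 that passed between the nerve types was thus higher in Fb-Par, while Tjp1 itself was higher in Fb-Epn.

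Among the scaffolds, Cgnl1, which encodes paracingulin, stood out in Fb-Par, with 12.3, 14.5 and 13.2 TPM there, 2.90, 3.22 and 2.74 in Fb-Epn, and 2.15, 3.21 and 1.91 in Fb-Skn. Its log2 fold change was -2.16 (SE 0.145, adjusted p = 1.18e-08) between Fb-Epn and Fb-Par and 2.31 (SE 0.149, adjusted p = 6.27e-09) between Fb-Par and Fb-Skn by edgeR.

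Among the membrane proteins, F11r (JAM-A) separated nerve from skin. It read 10.5, 9.11 and 7.86 TPM in Fb-Epn, 10.96, 13.29 and 17.26 in Fb-Par, and 0.309, 1.33 and 1.14 in Fb-Skn. F11r was higher than in Fb-Skn both in Fb-Epn (log2 fold change 3.19, SE 0.316, adjusted p = 8.05e-07) and in Fb-Par (3.77, SE 0.308, adjusted p = 8.8e-08), and did not pass between the nerve types (adjusted p = 0.0448, all by edgeR). Marveld3 was at 0 in every library, and Marveld2, which encodes tricellulin, had at most 3 reads per type. Cgn, which encodes cingulin, had 14 reads in Fb-Epn, 11 in Fb-Par and none in Fb-Skn.

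**Figure D4:**
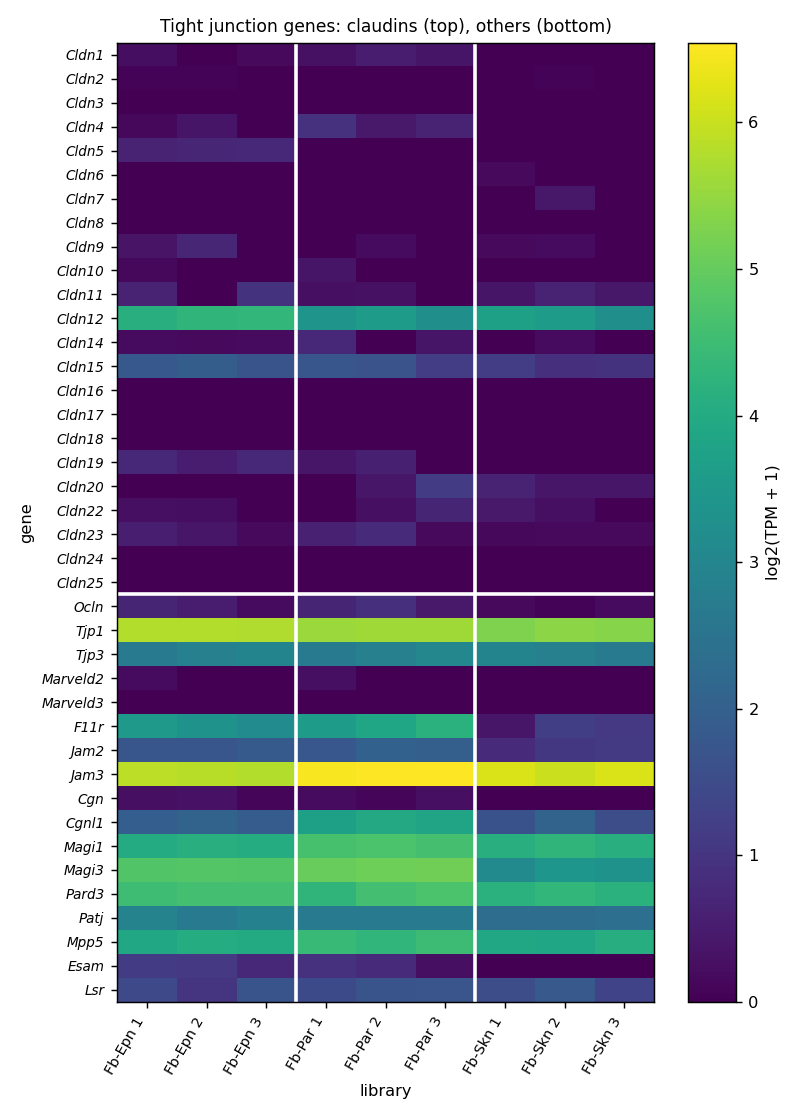
Heat map of log2(TPM + 1) in the 9 libraries (columns) for claudins (upper block) and other tight junction genes (lower block). Most claudin rows are at or near 0, whereas Tjp1, Jam3 and Magi3 are expressed in all 3 types, and Cgnl1 is highest in Fb-Par.

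Apart from Krt7 in Fb-Skn, the keratins were also low. Of 5 other simple epithelial keratins 3 were tested, and Krt18, the usual partner of Krt8, had 4 reads in Fb-Epn, 1 in Fb-Par and none in Fb-Skn. Krt7 read 13.1, 17.7 and 13.7 TPM in Fb-Skn, above 0.858 to 2.22 in Fb-Epn and 0.204 to 0.485 in Fb-Par (edgeR, log2 fold change -3.41, SE 0.270, adjusted p = 6.91e-08 for Fb-Epn and -5.51, SE 0.340, adjusted p = 3.71e-09 for Fb-Par, each against Fb-Skn). Krt8 had the reverse order, with 1.87 ± 0.272 TPM in Fb-Epn and 1.91 ± 0.542 in Fb-Par against 0.197 ± 0.155 in Fb-Skn (edgeR, adjusted p = 0.000178 and 0.000174). In the first and the last comparison 1 of the 3 tested keratins was higher and 2 were lower than in Fb-Skn. Of all tested genes, 23.0% and 23.2% were higher and 20.9% and 22.4% were lower. Between Fb-Epn and Fb-Par only Krt7 passed, higher in Fb-Epn (edgeR, log2 fold change 2.096, SE 0.432, adjusted p = 0.000975).

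Another 7 genes are used as perineurial markers, and all were tested. Against Fb-Skn, 6 were lower in Fb-Par and none was higher, beside 22.4% and 23.2% of all tested genes. The median log2 fold change was -1.132 beside -0.012 for all tested genes. Between the nerve types 4 were higher in Fb-Epn and 2 were lower, beside 20.2% and 18.6%, with a median of 0.693 beside 0. Between Fb-Epn and Fb-Skn, 2 were higher in Fb-Epn and 3 were lower, beside 23.0% and 20.9%. The other 2 did not pass, and the median was -0.745 beside -0.003. Slc2a1, the glucose transporter GLUT1 that is a common perineurial stain, read 143, 142 and 149 TPM in Fb-Epn, 32.6, 34.6 and 37.6 in Fb-Par, and 64.0, 73.2 and 69.9 in Fb-Skn. It was therefore lowest in the parenchymal cells (edgeR, log2 fold change 2.06, SE 0.058, adjusted p = 6.07e-13 for Fb-Epn against Fb-Par and -1.13, SE 0.060, adjusted p = 6.14e-10 for Fb-Par against Fb-Skn). Slc2a1 is also induced by low oxygen and is not particular to perineurial cells.

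Msln, which encodes mesothelin, read 42.5, 39.5 and 49.5 TPM in Fb-Epn, 0.418 to 0.551 in Fb-Par and 1.05 to 1.93 in Fb-Skn (edgeR, log2 fold change 6.48, SE 0.197, adjusted p = 1.36e-12 for Fb-Epn against Fb-Par). Casq2, the calcium-binding calsequestrin of cardiac muscle, was at 64.1 ± 1.27 TPM in Fb-Skn against 1.04 ± 0.273 in Fb-Epn and 3.46 ± 0.920 in Fb-Par. Gja1, the gap junction protein connexin 43, was at 344 ± 14.1 TPM in Fb-Skn, 226 ± 5.04 in Fb-Epn and 54.8 ± 1.94 in Fb-Par (edgeR, log2 fold change -2.80, SE 0.039, adjusted p = 1.63e-16 for Fb-Par against Fb-Skn). Msln, Casq2 and Gja1 each passed as lower in Fb-Par than Fb-Skn by edgeR, as did 22.4% of all tested genes. Within the nerve, Casq2 was higher in Fb-Par than Fb-Epn (edgeR, log2 fold change -1.70 for Fb-Epn against Fb-Par, SE 0.224, adjusted p = 1.79e-05). So was Itga6, an integrin subunit of basement membrane contacts, with 24.5 ± 1.13 TPM in Fb-Par against 12.5 ± 0.784 in Fb-Epn (edgeR, log2 fold change -0.96, SE 0.068, adjusted p = 2.13e-08), and it was at 27.2 ± 2.21 in Fb-Skn.

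Of the epineurial markers 3 were tested, and all 3 were higher in both nerve types than in skin cells. Of all tested genes, 23.0% were so in Fb-Epn and 23.2% in Fb-Par. Between the nerve types they went apart. Pi16, a marker of adventitial fibroblasts, was higher in Fb-Epn, with 21.8, 18.8 and 19.4 TPM against 14.1, 14.3 and 13.3 (edgeR, log2 fold change 0.53, SE 0.113, adjusted p = 0.00124), Clec3b was higher in Fb-Par, at 305 ± 20.3 against 132 ± 0.837 TPM (-1.20, SE 0.057, edgeR adjusted p = 2.46e-10), and Dpp4 did not pass (edgeR, adjusted p = 0.022).

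The cartilage genes that Sox9 is known to activate were read beside Sox9. Of 14, 11 were tested. Between Fb-Epn and Fb-Par, where Sox9 was higher in Fb-Epn, none of them was higher in Fb-Epn, 8 were lower and 3 did not pass, with a median log2 fold change of -1.37 beside 0 for all tested genes. Between Fb-Par and Fb-Skn, where Sox9 did not pass, 8 were higher in Fb-Par and none was lower, with a median of 2.78, or 2.02 when genes with at most 3 reads in each library of the lower type are set at that floor. Between Fb-Epn and Fb-Skn 5 were higher and 1 was lower, with a median of 0.225. Of all tested genes, 18.6% were lower in Fb-Epn than Fb-Par, 23.2% were higher in Fb-Par than Fb-Skn and 23.0% were higher in Fb-Epn than Fb-Skn.

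Col11a1, a minor fibrillar collagen, read 456, 467 and 471 TPM in Fb-Par, 106, 110 and 102 in Fb-Epn, and 30.5, 33.0 and 31.8 in Fb-Skn. It was lower in Fb-Epn than Fb-Par (log2 fold change -2.12, SE 0.034, adjusted p = 9.44e-16) and higher in Fb-Epn than Fb-Skn (fold change 1.6 on the log2 scale, SE 0.036, adjusted p = 3.83e-14, both by edgeR). Col9a1, a collagen that decorates cartilage fibrils, was nearly limited to Fb-Par, where it read 23.3, 25.1 and 25.3 TPM. It had 1 read in Fb-Epn and 1 in Fb-Skn in all 3 libraries together, against 1417 in Fb-Par, a ratio of Fb-Par to Fb-Skn of 1260 with a counting interval of 225 to 49700. Sox5 and Sox6, the partners of Sox9 in chondrocytes, were likewise highest in Fb-Par, at 2.14 ± 0.351 and 3.75 ± 0.699 TPM against 0.570 ± 0.156 and 1.45 ± 0.186 in Fb-Epn (edgeR, adjusted p = 0.000454 and 0.000955). Sox5 had no read in Fb-Skn. Col2a1, the defining cartilage collagen, had 2 reads in Fb-Par and none elsewhere.

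Sox10, the SoxE paralog that marks Schwann cells, was at 14.5 ± 0.596 TPM in Fb-Epn and 30.9 ± 1.20 in Fb-Par, with no read in Fb-Skn. It was lower in Fb-Epn than Fb-Par (edgeR, log2 fold change -1.08, SE 0.085, adjusted p = 3.23e-07), so that within the nerve it ran opposite to Sox9. The summed TPM of the cartilage genes and of the Schwann cell markers were both highest in Fb-Par, and the part of Schwann cells in these values was not tested. Most of the cartilage sum in Fb-Par was Col11a1, at 464.6 ± 7.80 TPM of 501.5 to 515.3.

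Etv1 was set beside the other PEA3 factors and FGF feedback genes. Of these 9 genes, 4 were higher and 3 lower in Fb-Epn than Fb-Par, 5 were higher and 1 lower in Fb-Epn than Fb-Skn, and 5 were higher and 2 lower in Fb-Par than Fb-Skn, with medians of 0.145, 0.495 and 0.533. Of all tested genes, 20.2% were higher and 18.6% lower, 23.0% and 20.9%, and 23.2% and 22.4%, in the same order. Neither paralog had the order of Etv1. Etv4 was highest in Fb-Skn, at 12.3 ± 0.921 TPM against 7.33 ± 1.17 in Fb-Par and 4.02 ± 0.454 in Fb-Epn. Etv5 had its highest mean in Fb-Epn, at 41.4 ± 2.53 against 31.8 ± 2.07 in Fb-Par (edgeR, log2 fold change 0.39, SE 0.063, adjusted p = 0.000124). Against Fb-Skn, at 32.8 ± 0.621, Etv5 in Fb-Epn did not pass (edgeR, adjusted p = 0.0175). Spry4, a feedback inhibitor of receptor tyrosine kinases, peaked in Fb-Par as Etv1 did, with 21.8, 18.5 and 19.3 TPM there against 8.08 to 9.89 in Fb-Epn and 7.41 to 8.57 in Fb-Skn (edgeR, adjusted p = 9.55e-08 and 1.26e-07). Spred1 was also lower in Fb-Epn than Fb-Par (edgeR, log2 fold change -0.34, adjusted p = 0.00569). Dusp6, Spry2 and Spred3 were instead higher in Fb-Epn than Fb-Par (0.34, 0.34 and 0.99, edgeR adjusted p = 0.000468, 0.00447 and 6.98e-06).

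Wif1 is 1 of several secreted Wnt inhibitors, and the others were measured beside it. Of 10, 7 were tested, with 4 higher and 2 lower in Fb-Epn than Fb-Skn, 3 higher and 1 lower in Fb-Epn than Fb-Par, and 4 higher and 1 lower in Fb-Par than Fb-Skn, with medians of 1.704, 0.436 and 0.208. Of all tested genes, 23.0% were higher and 20.9% lower, 20.2% and 18.6%, and 23.2% and 22.4%, in the same order. Sfrp1 read 892, 881 and 903 TPM in Fb-Epn, 76.5, 76.3 and 77.4 in Fb-Par, and 4.34, 6.10 and 4.71 in Fb-Skn. Its order is the reverse of that of Wif1 between nerve and skin (edgeR, log2 fold change 7.33, SE 0.062, adjusted p = 2.16e-18 for Fb-Epn against Fb-Skn and 3.78, SE 0.066, adjusted p = 1.84e-15 for Fb-Par against Fb-Skn). Dkk2 was the inhibitor that, like Wif1, was highest in Fb-Skn, at 3.02 ± 0.660 TPM against 1.54 ± 0.0753 in Fb-Epn (edgeR, adjusted p = 0.00141) and 1.14 ± 0.283 in Fb-Par (edgeR, adjusted p = 0.000113). Dkk1 had no read.

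Genes that canonical Wnt signalling commonly induces were read beside them. Of 7 tested, 5 were lower and 2 higher in Fb-Epn than Fb-Skn, and again 5 were lower and 2 higher in Fb-Epn than Fb-Par, with medians of -1.266 and -0.81. Between Fb-Par and Fb-Skn 3 were lower and 2 higher, with a median of 0.09. Of all tested genes, 20.9% were lower and 23.0% higher, 18.6% and 20.2%, and 22.4% and 23.2%, in the order of these comparisons. Axin2, a negative regulator that is a standard readout, read 9.75, 9.91 and 10.4 TPM in Fb-Skn, 5.90, 6.03 and 5.93 in Fb-Par, and 1.75, 1.37 and 1.38 in Fb-Epn. It was lower in Fb-Epn than Fb-Skn (log2 fold change -2.88, SE 0.133, adjusted p = 1.59e-10) and lower in Fb-Par than Fb-Skn (-0.90, SE 0.114, adjusted p = 9.46e-06, both by edgeR). The skin cells thus had both the highest Wif1 and the highest Axin2. Lgr5, a receptor for R-spondins, went the other way, from 6.16 ± 1.10 TPM in Fb-Epn to 2.53 ± 0.226 in Fb-Par and 0.1004 ± 0.121 in Fb-Skn.

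**Figure D5:**
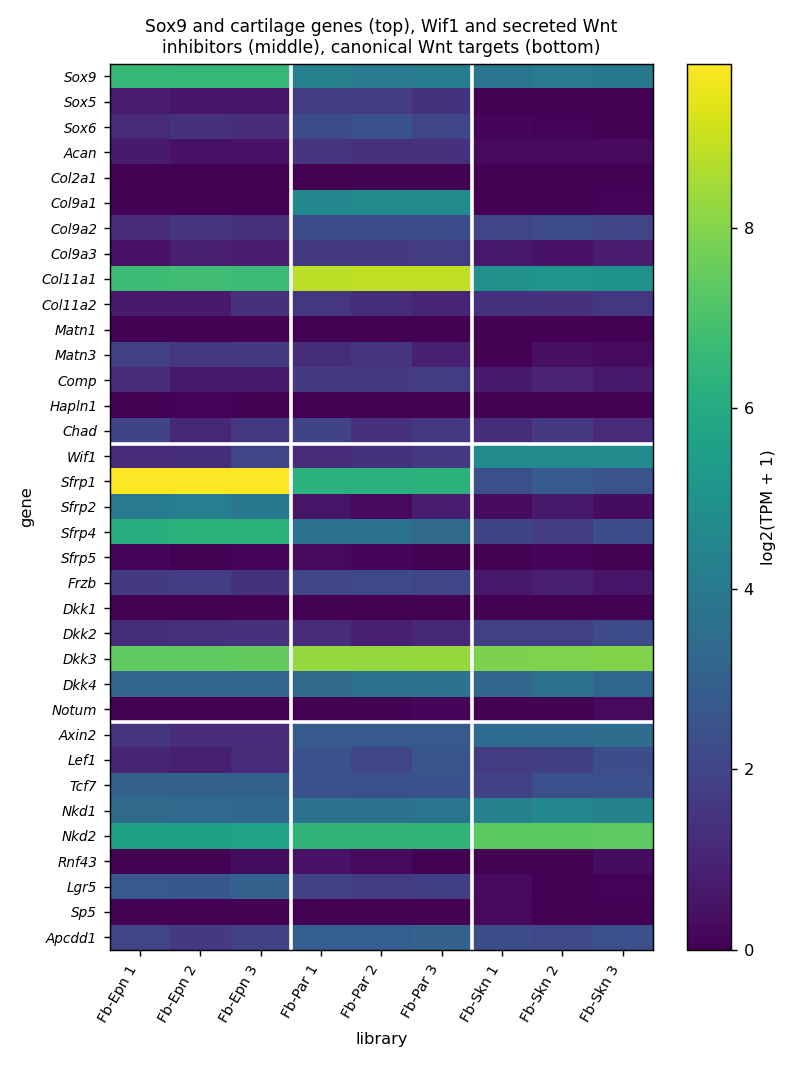
Heat map of log2(TPM + 1) in the 9 libraries (columns) for Sox9 with cartilage genes, for Wif1 with other secreted Wnt inhibitors, and for canonical Wnt targets. Sox9 is brightest in Fb-Epn whereas Col11a1 and Col9a1 are brightest in Fb-Par, and Wif1 is brightest in Fb-Skn whereas Sfrp1 is brightest in Fb-Epn.

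Desert hedgehog from Schwann cells organises the perineurium in development, and its readout was followed for that reason. Dhh was at 5.16 ± 0.427 TPM in Fb-Par and 2.77 ± 0.484 in Fb-Epn, with no read in Fb-Skn (edgeR, log2 fold change -0.88, SE 0.228, adjusted p = 0.00632 between the nerve types). Ptch1, the receptor that hedgehog signalling induces, read 5.73, 5.95 and 5.76 TPM in Fb-Par, 3.63, 3.28 and 3.85 in Fb-Epn, and 2.78, 2.66 and 2.72 in Fb-Skn. It was lower in Fb-Epn than Fb-Par (log2 fold change -0.69, SE 0.1, adjusted p = 4.82e-05) and higher in Fb-Par than Fb-Skn (0.94, SE 0.104, adjusted p = 2.19e-06, both by edgeR). Gli1, the most direct readout, had 27 reads in Fb-Par, 5 in Fb-Skn and 3 in Fb-Epn, too few to test. Of the Fb-Par reads of Gli1, 16 were in replicate 1. Hhip, followed with these genes, had 1 read in Fb-Par and none in the other types.

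The genes whose levels were most like those of each marker were named by Pearson's r of log2(TPM + 1) over the 9 libraries, among 12725 tested genes of at least 1 TPM. These r rest on the differences between 3 types and are given as a description. Sox9 was most like Fzd1 (r = 0.9983), a Wnt receptor at 337 TPM in Fb-Epn and 127 and 123 in Fb-Par and Fb-Skn, followed by Zfhx4 (0.9982) and Apln (0.998), and 49 genes had r above 0.99. Etv1 was most like Wfdc1 (0.9956), Lamp1 (0.9951) and B4galnt1 (0.995), and Osr2 most like Plekhg2 (0.9961), Gabbr1 (0.9959) and Cfap100 (0.9958). Wif1 was most like Ntm (0.9946), Rai2 (0.9919) and Gars (0.9912), with 6 genes above 0.99. Tjp1 was most like Nav1 (0.9946), AABR07028902.1 (0.9933) and Fn1 (0.9921). For Ocln no gene reached 0.99, and Wbp4 was the nearest (0.9428).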

How the data were processed

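Poly(A) RNA of 9 cultures was sequenced as paired reads of 150 bp from a directional kit. Per the submitters' processing notes, the tools were FastQC 0.11.7, Trimmomatic 0.38, HISAT2 2.1.0 and featureCounts 1.6.3 with build rn6; the annotation release and the strand setting of the counting are not given in the sources used here. The authors deposited raw counts per gene and TPM, which were used for tests and for levels. An FPKM table of 9 columns was not used.

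Counts of all 9 libraries entered 1 edgeR 4.0.16 model in R 4.3.3 (TMM, default filter, quasi-likelihood F test), which kept 13273 of 32883 genes, with a common coefficient of variation of 8.25%. Single low genes were compared by exact permutation of TMM-scaled CPM. Intervals at 95% on read ratios and the floor of 3 counts cover counting error only. On counts simulated with 1 common dispersion, the test found 50 of 50 genes changed 2-fold between Fb-Epn and Fb-Skn. It called 2 unchanged genes, of 13121 genes in all, in a run that also held genes changed 4-, 8- and 16-fold. Only genes above a minimum read level were changed, so the run does not cover genes as low as Ocln or more variable ones. Replicates differed by more than sampling noise (chi-square per degree of freedom 3.18 to 5.45).

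The 8 members, the lists and the tests were chosen with earlier results of these data known. Named genes are the 8 members, genes of the lists that passed or that define a cell type and lie near 0, and the 3 genes most like each tested member. Alternatives were other normalizations, DESeq2 1.42.0, limma 3.58.1 on log2 TPM with pseudocounts of 1 and 0.1, other filters, the compared types alone, a replicate block, each library left out and a threshold of 0.05. List counts and sums include a few genes for which no single result is given here.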

Additional observations from a re-analysis of the deposited data

How the results depend on the processing

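The count of members that passed was 4 under every alternative between Fb-Epn and Fb-Par, 4 between Fb-Epn and Fb-Skn except at a threshold of 0.05, where it was 6, and 3 to 5 between Fb-Par and Fb-Skn, where Ocln, Tjp1 and Cldn1 were the genes that came and went. The replicate numbers did not pair the libraries (correlations of same-numbered deviations -0.08 to 0.02), and with the replicate block 4 members passed in each comparison. The 1 log2 fold change that turned was that of Wif1 between Fb-Epn and Fb-Par, which was not called and ranged from -0.339 without Fb-Epn replicate 3 to 0.415 without Fb-Epn replicate 1. Of 1020 recomputed list counts, 959 stayed within 1.5 times the value given, and the other 61 were counts of small lists, of which 21 came from requiring 10 counts in every library, which tests fewer genes. Depth limits Cldn1, Krt19 and Ocln, which had at most 18 reads in a library. The nerve cells of 2 rats and the skin cells of 1 rat do not allow a statement about rats in general.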
